A study of Mus musculus with 6 samples.

Results

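Alternative activation is the state that macrophages take up when the cytokines IL-4 or IL-13 bind the receptor chain IL-4Rα and switch on the transcription factor STAT6. Cells in this state make the arginine-degrading enzyme arginase 1, the mannose receptor, chitinase-like proteins and the crosslinking enzyme transglutaminase 2, and they are known for wound repair, defence against worms and damping of inflammation. The genes described here are 10 that mark or steer this state, chosen by name: Tgm2, Arg1, Mrc1, Chil3, Il1rn, Pparg, Klf4, Il4ra, Tgfb1 and Socs2. All 10 were present among the 54532 genes of the deposited tables.

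RNA was sequenced from RAW264.7, an established mouse macrophage-like line, in 3 libraries labelled ERMAP knockdown, with shRNA as the treatment, and 3 libraries labelled WT, with no treatment tag. They are called ERMAP shRNA and RAW libraries here and carry the numbers of their columns. The series set out to find the genes that differ after ERMAP, a membrane protein of the butyrophilin family, is knocked down. Every sample carries the same protocol line naming an ERMAP-shRNA lentivirus, no control virus or non-targeting hairpin is described, and effects of transduction and of the hairpin cannot be told apart. No label says whether replicates were separate cultures, so the p-values capture how far these libraries spread, and that spread may be technical.

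Depth was similar, at 13447021 to 15116705 counts in ERMAP shRNA libraries and 14478988 to 16602734 in RAW libraries. Ermap itself had 10, 21 and 14 counts in ERMAP shRNA libraries, against 12, 12 and 3 in RAW libraries, so the label was not matched by less Ermap mRNA, and directions below are those of the labels. RAW library 1 stood apart: 3.69% of its counts were mitochondrial, against 1.71% to 2.18% in the ERMAP shRNA libraries and 1.87% and 1.89% in the other RAW libraries. Its log2 deviation from the other RAW libraries went down with transcript GC content (Spearman rho -0.82 over 9374 coding genes; a value across genes, and genes are no independent replicates). Against the other libraries of their own group, rho was 0.28, -0.54 and 0.40 in ERMAP shRNA libraries 1 to 3. It was 0.76 and 0.69 in RAW libraries 2 and 3. Their reference includes RAW library 1, so these values partly mirror its trend. The values of the 5 tested members are given with and without RAW library 1. Of 11 macrophage markers, 10 passed the filter on low counts, and their summed level was 7391 to 7562 CPM (counts scaled to library size, with TMM factors) in ERMAP shRNA libraries and 7189 to 7498 CPM in RAW libraries. Of these, Fcgr1, the high-affinity IgG receptor, rose to 89.0 ± 1.89 CPM in ERMAP shRNA libraries, against 28.6 ± 2.34 CPM in RAW libraries (SD, n = 3 each, edgeR adjusted p = 0.000116). Mertk, a receptor for dying cells, was at 0 counts. Of 56 markers of other blood, stromal and epithelial cells, 35 had 0 counts in every library and 5 passed the filter, of which edgeR called 0.

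Tgm2 was the member that changed. Its mRNA was about 10.3-fold lower in ERMAP shRNA libraries. The groups did not overlap, as in the same direction for 6.47% of all tested genes. Of the 10 genes, 5 passed the filter on low counts, and among those 1 fell and 0 rose (edgeR quasi-likelihood test, Benjamini-Hochberg adjusted p under 0.05 over 12491 tested genes). Across all tested genes 0.136% were called lower and 1.01% higher by the same rule. Before adjustment, 6.76% of all tested genes had p under 0.05, with 464 of 12491 higher and 380 lower. At that cut 2 members were lower and 0 higher. DESeq2 and limma-voom each called 0 members higher. The other 5 members, Arg1, Mrc1, Pparg, Socs2 and Chil3, had too few counts for the test. Tgm2 passed the filter only through the RAW libraries, the group where it was high. In the fit without that filter its log2 fold change was also -3.37 (edgeR adjusted p = 7.31e-06).

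**Figure D1:**
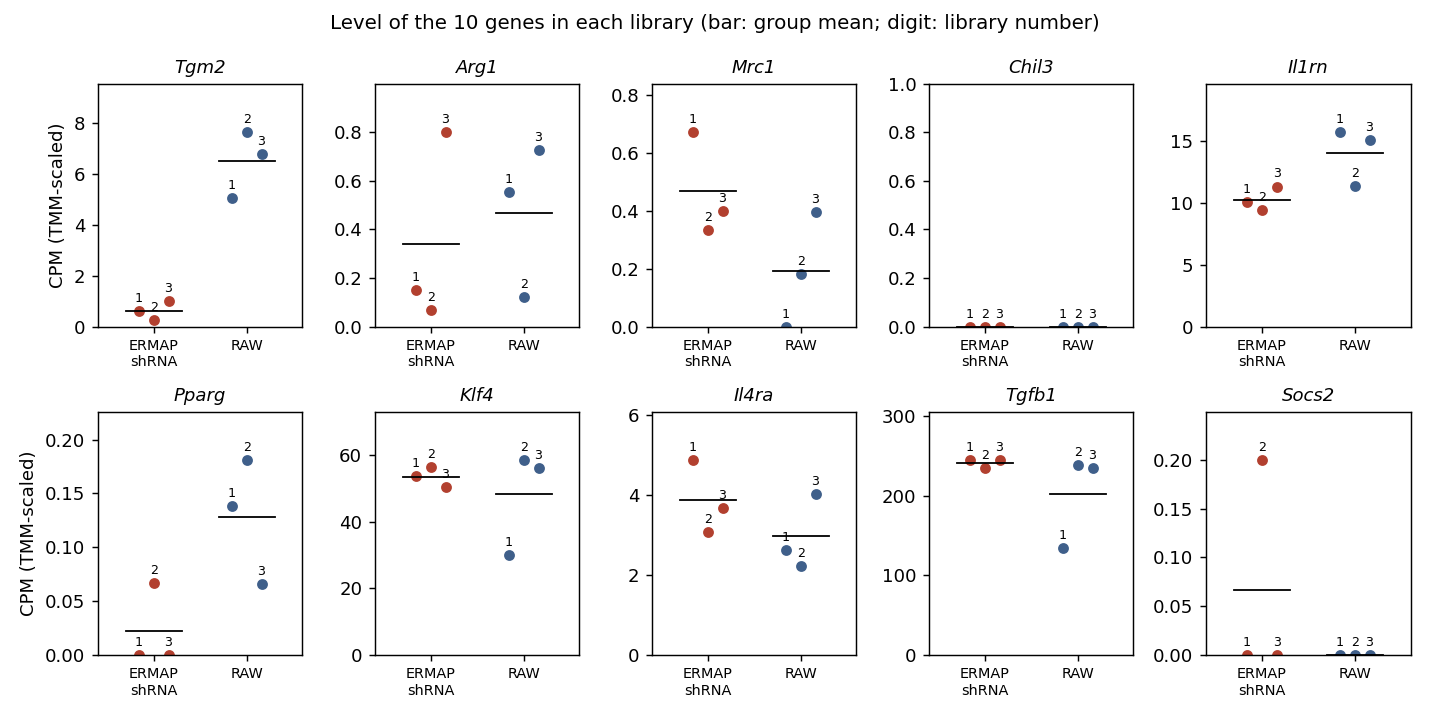
Level of each of the 10 genes in CPM (counts scaled to library size, linear axis from 0) in the 3 ERMAP shRNA libraries (left, red) and the 3 RAW libraries (right, blue); digits are library numbers and bars are group means. Tgm2 lies between 0.266 and 0.998 CPM in ERMAP shRNA libraries and between 5.05 and 7.65 CPM in RAW libraries, while RAW library 1 lies apart for Klf4 and Tgfb1.

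Tgm2 (ENSMUSG00000037820) encodes transglutaminase 2, which joins glutamine to lysine side chains between proteins, also binds GTP, and outside the cell helps phagocytes take up dying cells. In mm10 it occupies chromosome 2, positions 158116402 to 158146436, on the minus strand. It had 8, 4 and 15 counts in ERMAP shRNA libraries, against 73, 127 and 103 counts in RAW libraries. In CPM the levels were 0.598, 0.266 and 0.998 in ERMAP shRNA libraries, against 5.05, 7.65 and 6.80 in RAW libraries. The highest ERMAP shRNA library was thus well below the lowest RAW library, which was RAW library 1. Mean levels were 0.621 ± 0.366 CPM in ERMAP shRNA libraries and 6.50 ± 1.33 CPM in RAW libraries (SD, n = 3 each). On the log2 scale the difference was -3.37 with an SE of 0.39 and a 95% interval of -4.28 to -2.46 (edgeR adjusted p = 0.00503).

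The fall did not hang on a single library. Without RAW library 1 the log2 fold change of Tgm2 was -3.53 (edgeR adjusted p = 2.88e-08), and leaving out each library in turn gave -3.91 to -3.01 with adjusted p from 2.88e-08 to 0.044. It was called in all 18 alternative fits, with adjusted p from 4.21e-12 to 0.044. The size shrank to -1.08 on the log2(FPKM + 1) scale, where the added 1 is above the level of Tgm2 in ERMAP shRNA libraries and close to that in RAW libraries. FPKM are counts scaled for gene length and library depth, the unit used below to set levels of genes side by side.

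**Figure D2:**
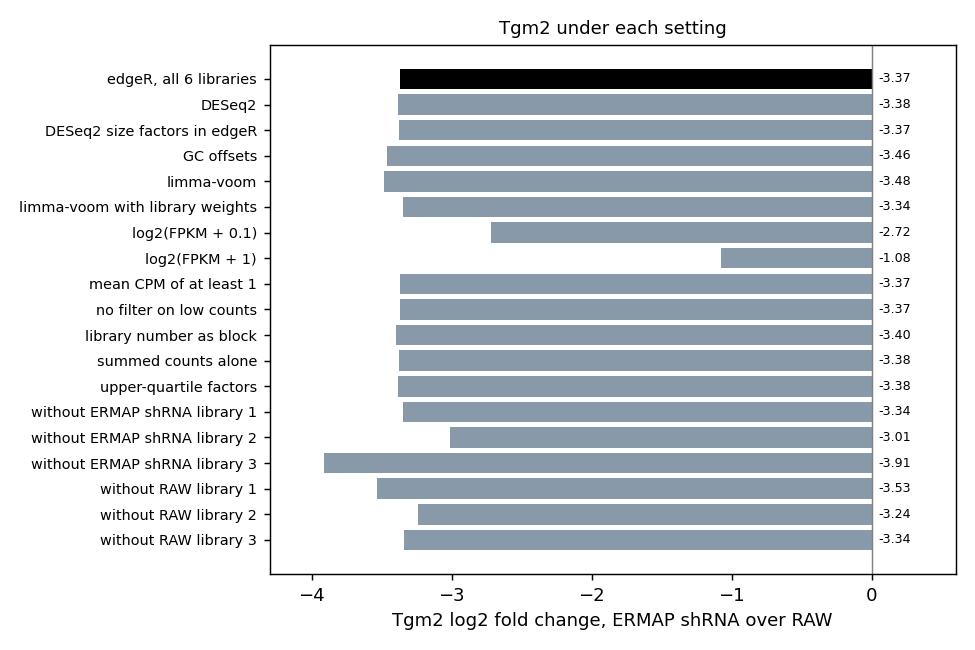
Log2 fold change of Tgm2, ERMAP shRNA over RAW, in the edgeR fit to all 6 libraries (black) and under 18 alternative settings (grey), on a linear axis. All bars point to lower Tgm2 in ERMAP shRNA libraries, from -3.91 without ERMAP shRNA library 3 to -1.08 on log2(FPKM + 1).

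Reads of Tgm2 could be mixed with those of genes on the opposite strand. Rprd1b, which encodes a protein that binds the tail of RNA polymerase II, overlaps Tgm2 over 15896 bases. In GENCODE vM21, 370 of the 4608 exonic bases of Tgm2 are also exonic in Rprd1b. A further opposite-strand gene, Gm20412, shares 633 of the exonic bases of Tgm2 and had 0 counts in both groups. Whether reads were counted by strand is not given in the sources used here. Rprd1b had 2968 counts in ERMAP shRNA libraries and 3091 in RAW libraries, with a log2 fold change of 0.03 (edgeR adjusted p = 0.963). Within 250 kb of Tgm2, 5 other genes were tested and 0 were called by edgeR, with log2 fold changes from -0.26 to 0.15.

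No other transglutaminase gene passed the filter. The list held 9 family members, among them the blood clotting factor XIII subunits and the non-catalytic red cell protein Epb42, and 6 of them had 0 counts in all 6 libraries. Tgm4, the prostate enzyme, had 24 counts over the ERMAP shRNA libraries and 35 over the RAW libraries. Tgm1, the keratinocyte enzyme, had 12 counts over the ERMAP shRNA libraries and 15 over the RAW libraries. Tgm3, a hair follicle and skin enzyme, had 0 counts over the ERMAP shRNA libraries and 3 over the RAW libraries. Per length, Tgm2 averaged 0.134 FPKM in ERMAP shRNA libraries, close to Tgm4 at 0.12 FPKM there, whereas in RAW libraries Tgm2 averaged 1.40 FPKM and Tgm4 0.169 FPKM.

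Proteins that bind transglutaminase 2 at the cell surface or in the matrix were also listed. Of 12, 6 were tested and edgeR called 0, with 0 higher and 1 lower at p under 0.05 before adjustment. The median log2 fold change was -0.18, against -0.01 over all tested genes. The tested genes were Sdc4, a heparan sulfate proteoglycan, the integrin chains Itgb1 and Itgav, the endocytic receptor Lrp1, the dying-cell bridge Mfge8, and the filament protein Vim. Fibronectin (Fn1), the matrix partner of transglutaminase 2, had 0 counts in every library. Without RAW library 1, edgeR called Lrp1, Mfge8 and Vim lower. Over all genes that fit called 342 higher and 280 lower, against 126 and 17 with all 6 libraries.

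**Figure D3:**
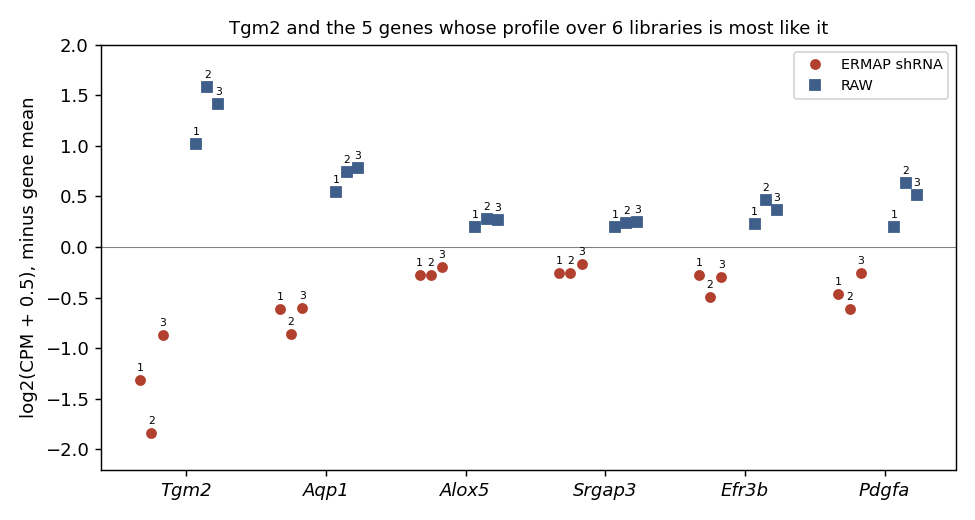
Log2(CPM + 0.5) minus the mean of each gene over the 6 libraries, for Tgm2 and the 5 genes most like it, with ERMAP shRNA libraries as red circles (left) and RAW libraries as blue squares (right); digits are library numbers. In all 6 genes every ERMAP shRNA library lies below every RAW library, as for 6.47% of all tested genes. The choice of genes by likeness to Tgm2 favours this pattern, so it is no separate result.

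The 5 genes whose profile over the 6 libraries was most like that of Tgm2 were Aqp1, Alox5, Srgap3, Efr3b and Pdgfa. They were ranked by Pearson correlation of log2(CPM + 0.5) among 9857 tested genes with a mean of at least 5 CPM, and their r was 0.993, 0.992, 0.991, 0.991 and 0.987. The 6 libraries form 2 groups, so a shared difference between the groups makes up much of such an r. Aqp1, a water channel, averaged 4.87 ± 0.528 CPM in ERMAP shRNA libraries and 13.5 ± 1.22 CPM in RAW libraries (SD, n = 3 each). Alox5, which starts leukotriene synthesis, averaged 183.3 ± 6.03 CPM in ERMAP shRNA libraries and 258.7 ± 7.83 CPM in RAW libraries. Pdgfa, a growth factor chain, averaged 9.39 ± 1.24 CPM in ERMAP shRNA libraries and 17.8 ± 2.76 CPM in RAW libraries. EdgeR called Aqp1 and Alox5 lower (adjusted p = 0.0033 and 0.0341). Srgap3, Efr3b and Pdgfa were not called (edgeR adjusted p = 0.0617, 0.0648 and 0.0555). Tgm2 differed by more on the log2 scale than any of these 5. Its own mean over the 6 libraries was under the 5 CPM asked of them, so other scarce genes were not compared.

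Il1rn encodes the IL-1 receptor antagonist, which occupies the IL-1 receptor without signalling and is induced by IL-4. It occupies chromosome 2, positions 24336853 to 24351494, on the plus strand. Its levels were 10.1, 9.38 and 11.3 CPM in ERMAP shRNA libraries, against 15.7, 11.4 and 15.1 CPM in RAW libraries. All ERMAP shRNA libraries were below all RAW libraries, as were those of 6.47% of all tested genes, but ERMAP shRNA library 3 came close to RAW library 2. The log2 fold change was -0.45, with an SE of 0.17 and a 95% interval of -0.84 to -0.06, and it did not pass the test (edgeR adjusted p = 0.568). It was -0.37 without RAW library 1 (edgeR adjusted p = 0.214). Over its 18 alternatives the adjusted p ran from 0.0442 to 1.0, and only limma-voom with library weights, a fit that gave RAW library 1 a weight of 0.0903, called it lower.

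Other genes of the IL-1 family were mostly scarce. IL-1 itself was scarce: Il1a had 4 counts over ERMAP shRNA libraries and 7 over RAW libraries, and Il1b had 13 counts over ERMAP shRNA libraries and 11 over RAW libraries. The signalling receptor Il1r1 had 2 counts over ERMAP shRNA libraries and 1 over RAW libraries. Of 14 listed genes with an entry, 6 passed the filter, and edgeR called 0, with 0 on either side at p under 0.05 before adjustment. The most abundant was Il18, an inflammasome-processed cytokine, with a mean of 9.88 FPKM in ERMAP shRNA libraries and 8.90 FPKM in RAW libraries. Without RAW library 1 edgeR called Il18rap, a chain of the IL-18 receptor, higher (log2 fold change 0.54, adjusted p = 0.00438), and limma-voom with library weights called Il18 and Il18rap higher. The 5 genes most like Il1rn in profile, Ppm1b, Dip2b, Pip5k1b, Gm42047 and Sinhcaf, had r from 0.978 to 0.996 and log2 fold changes from -0.22 to -0.09. Like Il1rn, they were not called (edgeR adjusted p from 0.861 to 0.937). As for Tgm2, a shared difference between the groups adds to such an r.

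**Figure D4:**
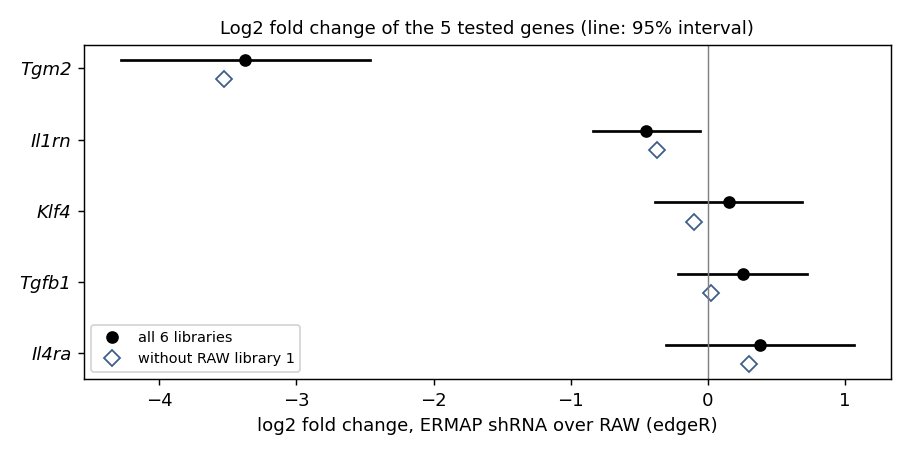
Log2 fold change, ERMAP shRNA over RAW, of the 5 members that passed the filter, from edgeR with all 6 libraries (black, with 95% intervals) and without RAW library 1 (open diamonds). The interval of Tgm2 lies far from 0; those of Klf4, Tgfb1 and Il4ra span 0, and Klf4 changes sign without RAW library 1.

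Il4ra encodes the IL-4Rα chain, through which both IL-4 and IL-13 signal. Its levels were 4.86, 3.06 and 3.66 CPM in ERMAP shRNA libraries, against 2.63, 2.23 and 4.03 CPM in RAW libraries. The groups overlapped. The log2 fold change was 0.38, with an SE of 0.29 and a 95% interval of -0.30 to 1.06 (edgeR adjusted p = 0.937), so changes in that interval were not excluded at 166 counts over ERMAP shRNA libraries and 136 over RAW libraries. It was 0.30 without RAW library 1, and 0.19 to 0.67 when each library was left out in turn.

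Most other genes of the IL-4 and IL-13 pathway were expressed, and 4 of 19 had 0 counts in every library. The partner chains Il2rg, the common gamma chain, and Il13ra1, the IL-13 receptor chain, had 26.2 ± 1.14 CPM and 77.7 ± 4.61 CPM in ERMAP shRNA libraries, against 21.6 ± 1.83 CPM and 90.9 ± 23.0 CPM in RAW libraries (mean ± SD, n = 3). Their log2 fold changes were 0.28 and -0.23 (edgeR adjusted p = 0.713 and 0.937). They were 0.20 and -0.0048 without RAW library 1, which was the highest for Il13ra1. Stat6, the transcription factor of the pathway, averaged 43.7 FPKM in ERMAP shRNA libraries and 45.3 FPKM in RAW libraries, with a log2 fold change of -0.06. Il4 itself had 9, 10 and 4 counts in ERMAP shRNA libraries, against 33, 12 and 7 in RAW libraries, where RAW library 1 held most of the reads. Its log2 fold change was -1.09, or -0.17 without RAW library 1 (edgeR adjusted p = 0.924 and 0.925), and Il13 was at 0 counts. Of 19 listed genes 15 were tested and edgeR called 0, with 2 higher and 0 lower at p under 0.05 before adjustment. Socs1 was called higher by DESeq2, and by edgeR without RAW library 1, without the filter or with GC offsets.

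Socs2, a member of the SOCS family, which curbs cytokine receptor signalling, was barely detected. It had 0, 3 and 0 counts in ERMAP shRNA libraries, against 0 counts in all 3 RAW libraries. Both sums were at or under the floor of 3 counts, so no fold is given. Of its 7 relatives 6 were tested and edgeR called 0, with 1 higher and 0 lower at p under 0.05 before adjustment. Socs1, which inhibits JAK kinases and is itself induced by interferon and IL-4, had 1.49, 2.73 and 3.73 CPM in ERMAP shRNA libraries, against 0.553, 0.723 and 1.06 CPM in RAW libraries. The groups did not overlap, as in the same direction for 7.74% of all tested genes. Its log2 fold change was 1.76 (SE 0.42, edgeR adjusted p = 0.168). It was called without RAW library 1 (edgeR, 0.0222) and by DESeq2 (0.0388). The other tested members had log2 fold changes from -0.18 to 0.09.

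Tgfb1 encodes the cytokine TGF-β1, which dampens inflammation and drives matrix deposition. It was the most abundant member per length, at 48.1, 46.4 and 48.3 FPKM in ERMAP shRNA libraries, against 26.3, 46.9 and 46.3 FPKM in RAW libraries. RAW library 1 was far below the other 5 libraries, which lay close together. The log2 fold change was 0.25, with an SE of 0.20 and a 95% interval of -0.22 to 0.72 (edgeR adjusted p = 0.937), and 0.02 without RAW library 1. Within 250 kb of Tgfb1, 12 other genes were tested. Axl, a receptor for dying cells and picked here after its values were seen, was the 1 that edgeR called, with a log2 fold change of 1.15 (edgeR adjusted p = 0.00503).

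Of 30 other TGF-β pathway genes, 20 were tested and edgeR called 0, with 0 higher and 1 lower at p under 0.05 before adjustment. The list median was -0.09. The most abundant was Nrros, which tethers latent TGF-β1 on macrophages, at 50.9 FPKM in ERMAP shRNA libraries and 43.6 FPKM in RAW libraries. Tgfbr2, the ligand-binding receptor, averaged 35.2 FPKM in ERMAP shRNA libraries and 30.7 FPKM in RAW libraries. Pmepa1, a TGF-β target that feeds back on the pathway, had 48 counts over ERMAP shRNA libraries and 118 over RAW libraries (log2 fold change -1.18, edgeR adjusted p = 0.444), and was called lower without RAW library 1. The other TGF-β genes were near absent: Tgfb2 had 3 counts in each group, and Tgfb3 had 4 counts over ERMAP shRNA libraries and 11 over RAW libraries.

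Klf4 encodes a zinc finger transcription factor that works with STAT6 in alternative activation. Its levels were 53.6, 56.4 and 50.5 CPM in ERMAP shRNA libraries, against 30.0, 58.4 and 56.1 CPM in RAW libraries. As for Tgfb1, RAW library 1 was the low one and the other 5 libraries were alike. The log2 fold change was 0.15, with an SE of 0.23 and a 95% interval of -0.39 to 0.69 (edgeR adjusted p = 0.949), and -0.10 without RAW library 1 (edgeR adjusted p = 0.592), so the sign rests on that library. Transcript GC content is 54.6% for Klf4, 52.5% for Tgfb1, 57.1% for Tgm2, 55.8% for Il4ra and 41.6% for Il1rn. A fit with GC offsets per library, added after the data were seen, gave 0.10 for Klf4 and 0.21 for Tgfb1 and left both uncalled. Of 16 other KLF genes 10 were tested and edgeR called 0, with 0 higher and 1 lower at p under 0.05 before adjustment. That was Klf6, at 44.1 ± 2.12 CPM in ERMAP shRNA libraries and 56.6 ± 4.46 CPM in RAW libraries (log2 fold change -0.36, edgeR adjusted p = 0.309). Klf6 was called lower without RAW library 1 (-0.32, edgeR adjusted p = 0.0285) and with library weights.

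Pparg encodes the fatty acid-sensing nuclear receptor PPARγ, which supports alternative activation. It was close to the limit of detection, with 0, 1 and 0 counts in ERMAP shRNA libraries, against 2, 3 and 1 counts in RAW libraries. The ratio of the sums, 1 to 6, was 0.177 with an exact 95% binomial interval of 0.00385 to 1.46, which covers counting error only. Among 19 partners and targets 16 were tested and edgeR called 0, with 0 higher and 2 lower at p under 0.05 before adjustment. Those were Cd36, a scavenger receptor for oxidised lipid, and Lpl, which splits triglycerides. Cd36 averaged 12.1 ± 2.55 CPM in ERMAP shRNA libraries and 20.2 ± 4.73 CPM in RAW libraries (SD, n = 3 each, log2 fold change -0.74, edgeR adjusted p = 0.362). Lpl averaged 68.3 FPKM in ERMAP shRNA libraries and 101.2 FPKM in RAW libraries (log2 fold change -0.57, edgeR adjusted p = 0.306). It was called lower without RAW library 1, its highest library (-0.37, edgeR adjusted p = 0.000782), and with GC offsets or library weights. The related receptor Ppard had 6.45 FPKM in ERMAP shRNA libraries and 5.05 FPKM in RAW libraries (log2 fold change 0.35, edgeR adjusted p = 0.793), or 0.17 without RAW library 1.

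Arg1 encodes arginase 1, which turns arginine into ornithine and urea. It had 2, 1 and 12 counts in ERMAP shRNA libraries, against 8, 2 and 11 in RAW libraries. Within each group library 3 held the most reads, and the groups overlapped throughout. The ratio of the sums was 0.76 (exact 95% binomial interval 0.364 to 1.55, counting error only), and the fit without a filter on low counts gave a log2 fold change of -0.42 (edgeR adjusted p = 0.938). Arg2, the mitochondrial arginase, had 10, 11 and 12 counts in ERMAP shRNA libraries, against 24, 5 and 7 in RAW libraries. Its log2 fold change was -0.06, or 0.98 without RAW library 1 (edgeR adjusted p = 0.993 and 0.433).

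Nos2, the inducible nitric oxide synthase, competes with arginase for arginine and was picked here after its values were seen. It had 9, 11 and 8 counts in ERMAP shRNA libraries, against 0 counts in all 3 RAW libraries. Set against a floor of 3 counts for the RAW group as a whole and scaled for depth, its 28 counts were 9.93-fold higher. That figure leaves out counting error in the ERMAP shRNA libraries. It missed the filter on low counts, was called by DESeq2 (adjusted p = 0.0081) and, without that filter, by edgeR (0.0161). At under 1 CPM it was rare in both groups. Of 16 genes of arginine and polyamine metabolism 12 were tested and edgeR called 0, with 1 higher and 0 lower at p under 0.05 before adjustment. That was Sat1, which acetylates polyamines, at 76.2 ± 4.30 CPM in ERMAP shRNA libraries and 62.7 ± 3.31 CPM in RAW libraries. Sat1 was called higher without RAW library 1 (log2 fold change 0.32, edgeR adjusted p = 0.0123) and with library weights.

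Mrc1 encodes the mannose receptor CD206, an endocytic lectin. It had 9, 5 and 6 counts in ERMAP shRNA libraries, against 0, 3 and 6 in RAW libraries. The groups overlapped, and RAW library 1 was at 0. The ratio of the sums was 2.36 (exact 95% binomial interval 1.03 to 5.90, counting error only), while the fit without a filter gave a log2 fold change of 1.23 and edgeR adjusted p = 0.825. Of 12 related C-type lectins 4 were tested and edgeR called 0, with 0 higher and 1 lower at p under 0.05 before adjustment. The lower one was Clec7a, the β-glucan receptor dectin-1, with 10.3, 12.4 and 7.98 CPM in ERMAP shRNA libraries, against 29.0, 16.2 and 15.1 CPM in RAW libraries. Its log2 fold change was -0.97 (SE 0.29, edgeR adjusted p = 0.332), or -0.62 without RAW library 1, its highest library (adjusted p = 0.0202). Clec10a, a galactose-binding lectin, averaged 3.55 FPKM in ERMAP shRNA libraries and 3.60 FPKM in RAW libraries (log2 fold change -0.03).

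Chil3 encodes Ym1, a secreted chitinase-like protein of mouse alternatively activated macrophages. It had 0 counts in all 6 libraries, which allows at most 3 counts per group, or 0.0691 CPM in ERMAP shRNA libraries and 0.0649 CPM in RAW libraries, for counting error only. Of 8 relatives, the close copy Chil4 was also at 0. Just Ctbs, a lysosomal chitobiase, and Chid1 were tested, with log2 fold changes of -0.37 and 0.14, or -0.09 and 0.03 without RAW library 1, and edgeR called 0 of them, with 0 at p under 0.05 before adjustment.

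Per length, the members kept a wide spread of levels. In ERMAP shRNA libraries the order by mean FPKM was Tgfb1 (47.6), Klf4 (17.4), Il1rn (1.84), Il4ra (0.639), Arg1 (0.151), Tgm2 (0.134), Mrc1 (0.073), Pparg (0.00748), Socs2 (0.00695) and Chil3 (0). In RAW libraries it was Tgfb1 (39.8), Klf4 (15.7), Il1rn (2.51), Tgm2 (1.40), Il4ra (0.489), Arg1 (0.208), Pparg (0.043), Mrc1 (0.03), with Socs2 and Chil3 at 0. The lowest places rest on few counts, such as 1 for Pparg and 3 for Socs2 over the ERMAP shRNA libraries. Their order is therefore uncertain. Tgm2 stood above Il4ra in every RAW library and below it in every ERMAP shRNA library. In ERMAP shRNA libraries its range, 0.0575 to 0.216 FPKM, overlapped that of Arg1, 0.0297 to 0.357 FPKM.

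Other genes of alternative activation were mostly silent or uncalled. Of 35 listed, 14 were tested and edgeR called 0, with 0 higher and 4 lower at p under 0.05 before adjustment, and 14 had 0 counts in all 6 libraries, among them Retnla, the resistin-like protein, Cd163, a haemoglobin scavenger receptor, and Ccl24, an eosinophil chemoattractant. The 4 lower ones were Clec7a, Cd36, Egr2 and Flt1. Over all 12491 tested genes, 464 were higher and 380 lower at that cut. Egr2, a STAT6-induced transcription factor, averaged 3.08 ± 0.425 CPM in ERMAP shRNA libraries and 5.38 ± 0.7 CPM in RAW libraries. Flt1, a VEGF receptor, averaged 24.0 ± 2.20 CPM in ERMAP shRNA libraries and 36.5 ± 2.61 CPM in RAW libraries (SD, n = 3 each). Their log2 fold changes were -0.81 and -0.60 (edgeR adjusted p = 0.206 and 0.0711). The median over the 14 was 0.06, against -0.01 over all tested genes. DESeq2 called Clec7a and Flt1 lower, and without RAW library 1 edgeR called Clec7a, Egr2 and Flt1 lower and Msr1, a scavenger receptor, higher.

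**Figure D5:**
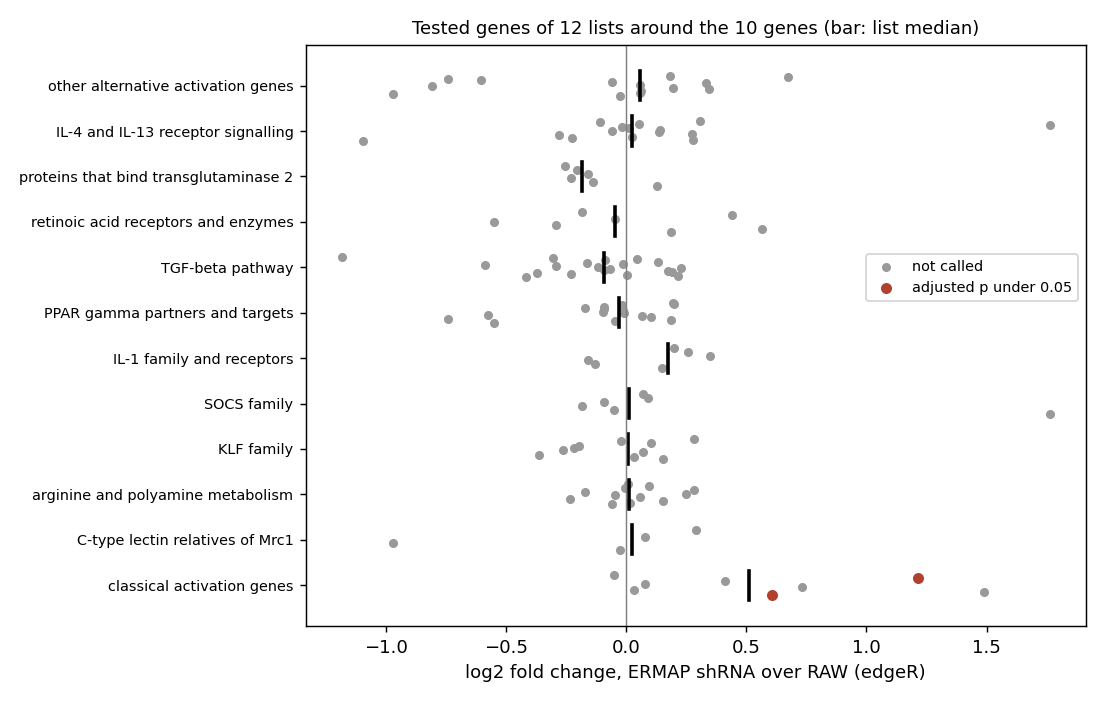
Log2 fold change, ERMAP shRNA over RAW (edgeR, all 6 libraries), of each tested gene in 12 lists around the members; red points have an adjusted p under 0.05 and black bars are list medians. The 2 called points are Tnf and Acod1 in the classical activation list, whose median is 0.51; the medians of the other 11 lists lie between -0.18 and 0.17.

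Retinoic acid is a known inducer of Tgm2, so its receptors and enzymes were listed. Of 18 genes 7 were tested and edgeR called 0, with 1 higher and 0 lower at p under 0.05 before adjustment. That was Dhrs3, which reduces retinaldehyde, at 8.82 FPKM in ERMAP shRNA libraries and 6.47 FPKM in RAW libraries (log2 fold change 0.44, edgeR adjusted p = 0.332). The receptor Rara averaged 11.2 FPKM in ERMAP shRNA libraries and 9.80 FPKM in RAW libraries, and its partner Rxrb averaged 26.5 FPKM in ERMAP shRNA libraries and 27.3 FPKM in RAW libraries. Without RAW library 1, edgeR called Rarg, another retinoic acid receptor, lower.

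Over the 13 lists of relatives, partners and pathways, which hold 199 genes beside the members, 109 were tested and edgeR called 0, with 4 higher and 8 lower at p under 0.05 before adjustment. DESeq2 called 2 higher and 2 lower of 122 it tested. Limma-voom called 0, and with library weights 4 higher and 11 lower. EdgeR with GC offsets called 1 higher and 5 lower, and without the filter 2 higher and 0 lower. Without RAW library 1 edgeR called 5 higher and 10 lower, and without any other single library it called 0. Calls over all genes also rose without RAW library 1, to 342 higher and 280 lower from 126 and 17. The classical activation list served as the counterpart. Of its 18 genes 8 were tested, 2 rose and 0 fell, with 4 higher and 0 lower at p under 0.05 before adjustment. Tnf rose to 43.6, 39.1 and 43.6 CPM in ERMAP shRNA libraries, against 29.1, 26.5 and 27.2 CPM in RAW libraries. Acod1, which makes itaconate, rose to 4.11, 4.06 and 3.79 CPM in ERMAP shRNA libraries, against 1.80, 1.63 and 1.72 CPM in RAW libraries. Their log2 fold changes were 0.61 and 1.22 (edgeR adjusted p = 0.041 and 0.0354). DESeq2 called these and also Nos2 and Cxcl10, a chemokine, higher, 4 of 12 it tested. The edgeR calls of Tnf and Acod1 were each lost without any single library other than RAW library 1 (adjusted p up to 0.308 for Tnf and 0.223 for Acod1). Whether the classical and alternative lists differ was not tested.

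Among markers of other cells, the dendritic list held Itgax, which macrophages also express. That list summed to 2.73 to 2.86 CPM in ERMAP shRNA libraries and 5.60 to 6.74 CPM in RAW libraries, moving in the direction of Tgm2. The scarce erythroid markers also summed lower, at 0.133 to 0.599 CPM in ERMAP shRNA libraries and 0.602 to 1.04 CPM in RAW libraries. Other lists went the opposite way. T cell markers summed to 3.19 to 5.52 CPM in ERMAP shRNA libraries and 1.85 to 2.35 CPM in RAW libraries. B cell markers summed to 52.5 to 64.1 CPM in ERMAP shRNA libraries and 36.0 to 47.0 CPM in RAW libraries. Itgax had 0.672, 1.20 and 1.40 CPM in ERMAP shRNA libraries, against 2.90, 4.46 and 3.70 CPM in RAW libraries (log2 fold change -1.74, edgeR adjusted p = 0.0564). It was called lower by DESeq2 (adjusted p = 0.00262) and by edgeR without RAW library 1 (0.000287). Of the 7 dendritic markers 2, Flt3 and Cd209a, were at 0 counts in all 6 libraries. Zbtb46, also on that list, was expressed, with a log2 fold change of -0.08 without RAW library 1 (edgeR adjusted p = 0.948). The part of the dendritic markers in the Tgm2 result was not tested. Fibroblast and epithelial markers, whose cells express Tgm2, each summed to at most 0.181 CPM in any library, with 0 in every ERMAP shRNA library. In bulk RNA, fewer cells that express Tgm2 and less Tgm2 RNA per cell cannot be told apart.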

How the data were processed

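Gene-level counts as whole numbers and FPKM were deposited by the authors for 6 libraries, with a mean FPKM per group. The submitters' processing notes name HISAT2 and the mm10 build; for the counting program, its strand setting and the annotation release, the sources used here state nothing. Deposited FPKM equal the count over gene length and a constant per library. Columns carry a group name and a number that ties them to no single sample title.

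Counts were tested with edgeR 4.0.16 (R 4.3.3): TMM factors, filterByExpr at a minimum count of 10, robust quasi-likelihood, Benjamini-Hochberg adjustment over 12491 genes, and calls at an adjusted p under 0.05. SE is the size of the log2 fold change over the root of F. The edgeR script was tested on simulated data, where false calls ran above the nominal share and changes of small fold were often missed. Alternatives used DESeq2 1.42.0, limma 3.58.1 on voom values and on log2 FPKM, other scalings and filters, the library number as a replicate block, and fits that drop 1 library. No pair of libraries agreed within sampling noise. GC content came from GENCODE vM21 transcripts.

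The members, lists and tests were chosen with earlier results of these data known. Named genes are the members, called list genes or else the most abundant, genes most like Tgm2 or Il1rn, paralogs of Tgm2 and IL-4 receptor chains. Others are named for an unadjusted p under 0.05, a low count or a role, after their values were seen.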

Additional observations from a re-analysis of the deposited data

How the results depend on the processing

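Tgm2 was called lower in each of the 18 alternative fits, from -3.91 to -1.08 on the log2 scale. The smallest value, on log2(FPKM + 1), and -2.72 on log2(FPKM + 0.1) are on scales that understate low genes by construction. The members called lower numbered 1 in every alternative other than limma-voom with library weights, which gave 2 by adding Il1rn (-0.45, adjusted p = 0.0442, and up to 1.0 in its other alternatives); the cause was not tested. No alternative called a member higher. The log2 fold change of Klf4, 0.15 with all libraries, was -0.10 without RAW library 1 and -0.080 with library weights, which gave that library a weight of 0.0903; leaving out 1 library gave -0.10 to 0.31.

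Over all genes 126 were called higher and 17 lower. An adjusted p under 0.01 gave 82 and 3, DESeq2 187 and 58, no filter on low counts 158 and 32, library weights 468 and 409, GC offsets 247 and 170, and leaving out 1 library 73 to 342 and 3 to 280, the highest without RAW library 1 and the lowest without ERMAP shRNA library 3. With the library number as a replicate block Tgm2 was -3.40 (adjusted p = 0.0283) and 81 and 3 genes were called; under it neither Tnf (adjusted p = 0.231) nor Acod1 (0.192) was called. The numbers were not treated as pairs: same-numbered libraries deviated from their group means with r of -0.312, -0.545 and 0.407, and not every library correlated best with its own number. GC offsets were added after the data were seen. Depth limits Arg1, Mrc1, Pparg, Socs2 and Chil3, whose counts were too low for a test.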
